A study of Mus musculus with 8 samples.

Results

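The wild type testis was compared between 26 and 17 days postpartum (dpp) in C57BL/6 mice. The comparison uses the 4 arrays titled as wild type at these ages, out of 8 arrays in the study. Each age has 2 arrays (n = 2), which the labels call biological replicates. The mice carried 2 functional Ip6k1 alleles (Ip6k1+/+) and were littermates of Ip6k1-/- mice from crosses of Ip6k1+/- parents. The 17 dpp pups were not yet weaned and the 26 dpp mice were, so weaning and age cannot be told apart. Total RNA of the dissected testes was copied from an oligo-dT primer, labelled with Cy3 and hybridised to Agilent 1-colour arrays. The 2 Ip6k1-/- arrays of 17 dpp are given beside some results only to show the level in other testes of that age. All mice were killed with CO2.

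In the mouse, the first wave of spermatogenesis runs nearly in step through the testis. Spermatogonia enter meiosis in the second week after birth, spermatocytes pass through pachytene around the younger age sampled here, and the meiotic divisions and haploid spermatids follow before the older one. Spermatids first build an acrosome and a tail and then replace most histones by transition proteins and protamines. Sertoli cells nurse the germ cells, Leydig cells make androgen, and peritubular myoid cells wrap the tubule.

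Levels are log2 signals relative to the 75th percentile of signal on the same array, so 75% of the spots lie below 0 and 1 unit is a 2-fold step. A difference is the mean at 26 dpp minus the mean at 17 dpp. A gene was called when its limma p, adjusted by Benjamini-Hochberg over all 26283 genes tested, was under 0.05. With 2 arrays an age, p-values measure only the spread between these arrays, which may be technical.

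Of 26283 genes, 18655 (71%) were called. At 26 dpp 6920 genes (26.3%) were higher and 11735 (44.6%) lower, and the median of all genes was -0.46. The rises were fewer and far larger. Rises over 2-fold numbered 5778 (22%) and falls over 2-fold 8503 (32.4%), but 2184 genes rose over 16-fold and 91 fell over 16-fold. Without any test, both 26 dpp arrays lay above both 17 dpp arrays for 8512 genes (32.4%) and below both for 14713 (56%). A gene whose probe was not well above background on either array of one age but was on both of the other was found 1564 times for 26 dpp and 1265 times for 17 dpp. Such genes entered the test only through the age where they were bright, so their direction was largely set by that filter. Of them 1547 were called higher and 1064 lower, and they are part of the shares given here and below. In every count by fold they stand at fitted values, although their folds are only lower bounds.

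These directions are relative to each array's own RNA. Scaled instead to the median of 10 Agilent spike-in probes, every difference moves up by 1.62, the median of all genes becomes 1.16, and 95.9% of the called genes are higher in place of 37.1%. The 75th percentile of signal was 512 and 503 at 17 dpp and 637 and 666 at 26 dpp, while the spike-in medians were 10.78 and 11.02 at 17 dpp and 9.88 and 9.40 at 26 dpp on the log2 scale. Differences are therefore read below against the median of all genes, and lists whose median turns positive under spike-in scaling are named. The correlation over genes, which are not independent of each other, was 0.989 between the 17 dpp arrays, 0.987 between the 26 dpp arrays, and 0.717 to 0.769 between arrays of different age. By the position names of the arrays, all arrays of an age lay in 1 row of the slide, so row and age cannot be told apart.

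**Figure D1:**
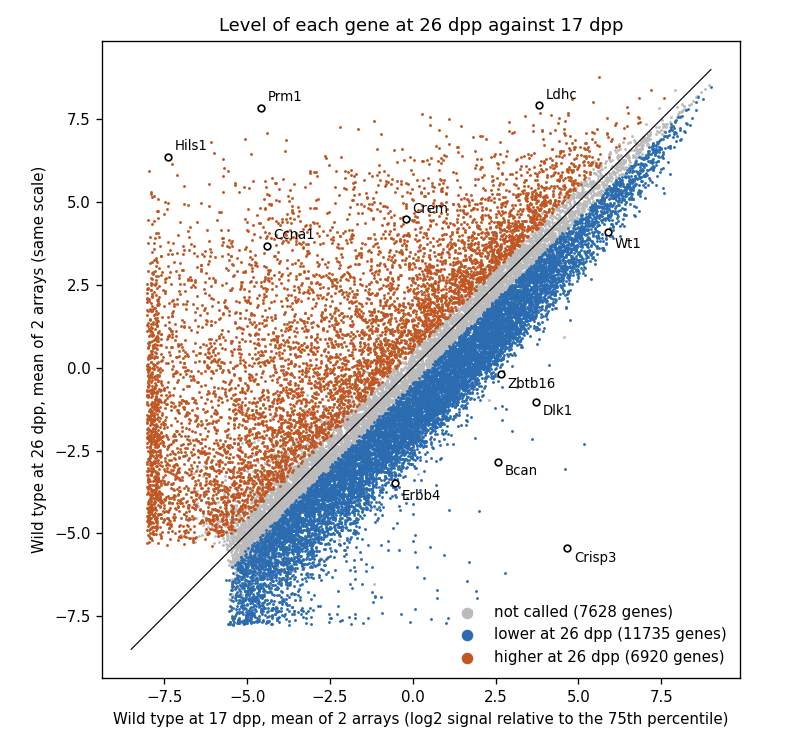
Each point is 1 of 26283 genes, with its mean log2 level at 17 dpp on the x axis and at 26 dpp on the y axis (2 arrays each, relative to the 75th percentile), orange where called higher, blue where called lower and grey where not called; some genes are named. Genes that rose spread far above the diagonal, Hils1 and Prm1 among them, while most genes that fell lie in a band just below it. Under spike-in scaling the diagonal would sit 1.62 lower, through that band.

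The tissue label was checked against its markers. Germ cell, Sertoli cell and Leydig cell genes were well above background on all 4 arrays: Ddx4, an RNA helicase of germ cells, lay at 4.66 and 4.87 at 17 dpp and 5.95 and 6.01 at 26 dpp, Wt1, a transcription factor of Sertoli cells, at 5.91 and 5.85 at 17 dpp and 4.18 and 4.03 at 26 dpp, and Cyp17a1, an enzyme of androgen synthesis, at 0.19 and -1.94 at 17 dpp and 2.47 and 1.72 at 26 dpp. The Ip6k1 probe read 2.19 and 2.30 at 17 dpp and 2.79 and 2.77 at 26 dpp in the wild type testes, against 1.36 and 1.49 in the Ip6k1-/- testes at 17 dpp.

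Markers of tissue outside the testis were not evenly spread over the arrays. Of 20 epididymal genes listed, 15 were measured, 10 fell and 3 rose, beside 44.6% and 26.3% of all genes. Their levels summed on the linear scale, in multiples of the 75th percentile, ranged from 12.8 to 31.8 at 17 dpp and from 22.1 to 47.6 at 26 dpp, where Cst8 made most of the sum. Crisp1, a secretory protein of the epididymis, lay at 0.97 and 2.58 at 17 dpp and -7.69 and -7.03 at 26 dpp and at -7.75 and -7.87 in the Ip6k1-/- testes of 17 dpp, among the lowest signals. At 26 dpp 8 of the 15 genes were not well above background. These 8 entered only through 17 dpp, so their fall was largely set by that filter. The share of the list that fell is therefore not directly comparable with that of all genes. Adipocyte genes separated the 17 dpp replicates: 8 of 9 measured genes differed over 2-fold between them, and their sum was 29.4 in replicate 1 and 249 in replicate 2, against 13.4 to 35.6 at 26 dpp. Adipoq, the fat cell hormone adiponectin, read -3.10 and 3.19 at 17 dpp and 0.81 and 0.41 at 26 dpp. The red blood cell sum fell from between 242 and 368 to between 64.3 and 102. The part of these tissues in the results was not tested.

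Protamine genes were among the largest rises. Genes with clone, predicted-gene or accession names, or with no current symbol, were left out of this ranking and of that of the falls. Among the other genes measured on all 4 arrays the largest rise was that of Prm1, protamine 1, which packs sperm DNA. Prm1 lay at -4.72 and -4.44 at 17 dpp and 7.28 and 8.39 at 26 dpp, a difference of 12.42 ± 0.42 (SE, limma adjusted p = 0.000209); its probe is at chr16:10796450-10796509 on mm9. Prm2, the second protamine, lay at -4.74 and -4.09 at 17 dpp and 6.05 and 8.12 at 26 dpp, a difference of 11.50 ± 0.75 (SE, limma adjusted p = 0.000797). Both 26 dpp arrays lay far above both 17 dpp arrays for each, and replicate 2 was the higher of the 26 dpp pair.

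Between them in size of change came Gsg1, germ cell-specific gene 1, with -5.04 and -5.10 at 17 dpp and 6.47 and 7.37 at 26 dpp and a difference of 11.99 ± 0.34 (SE, limma adjusted p = 0.000161). Adam3, a sperm surface protein needed for passage into the oviduct, read -5.0 and -2.64 at 17 dpp and 6.77 and 6.98 at 26 dpp and rose by 10.69 ± 0.82 (SE, limma adjusted p = 0.0011). Gapdhs, the sperm form of a glycolytic enzyme, read -5.0 and -4.89 at 17 dpp and 4.88 and 5.97 at 26 dpp and rose by 10.37 ± 0.40 (SE, limma adjusted p = 0.000257). In all 3 genes the groups were far apart, and Adam3 was the one with a wide gap between the 17 dpp arrays. Tmem247 (10.09), Akap4 (9.87), which anchors kinase to the fibrous sheath of the tail, Tex48 (9.75), Tex33 (9.74) and Spaca7 (9.64), a protein of the acrosome, completed the 10 largest rises in this ranking.

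Some genes were not well above background on either 17 dpp array. Their folds are lower bounds, written "at least". Each dim array counts at its own signal or at the dimmest signal that any probe well above background had there, whichever is higher. Hils1, a linker histone of elongating spermatids, lay at -7.90 and -6.88 at 17 dpp and 5.84 and 6.88 at 26 dpp, at least 4265-fold higher (limma adjusted p = 0.000246). H1f7, another spermatid linker histone, was at least 3707-fold higher, with -7.86 and -6.69 at 17 dpp and 5.48 and 6.84 at 26 dpp. Scp2d1 was at least 3199-fold, Smcp, a protein of the sperm mitochondrial capsule, at least 2958-fold, Tmco5 at least 2063-fold and Ropn1, a tail scaffold protein, at least 1972-fold higher. Their limma adjusted p ranged from 0.000137 to 0.000266. The p-values given with "at least" folds, here and below, take the dim signals as measured values. Genes with such folds entered the test only through the age where they were bright. Their p-values are therefore no separate support for the direction. The corresponding Ip6k1-/- arrays of 17 dpp were also low for Ropn1 (-7.68 and -7.75) and Smcp (-5.10 and -7.22).

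Of the largest falls, ranked among the same kinds of gene, some were low in the Ip6k1-/- testes of 17 dpp as well and others were high there. Comparisons with either set share the wild type 17 dpp arrays, so the levels are given side by side. Defb28, a beta-defensin, read 3.67 and 5.52 at 17 dpp and -3.15 and -2.95 at 26 dpp, a difference of -7.65 ± 0.65 (SE, limma adjusted p = 0.00138), and -6.99 and -7.83 in the Ip6k1-/- testes of 17 dpp. Spink8, a protease inhibitor, read 4.16 and 6.19 at 17 dpp and -1.72 and -2.90 at 26 dpp and fell with a difference of -7.48 ± 0.82 (SE, limma adjusted p = 0.00225), with -6.72 and -6.28 in the Ip6k1-/- testes. For both, only the wild type 17 dpp arrays were high among these 6. Serpina1f (-6.30), Wfdc13 (-5.76) and Cd52 (-4.90) had the same arrangement, with Ip6k1-/- levels of -4.34 and -4.04, -2.27 and -1.40 and -1.45 and -1.46.

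The falls with "at least" folds were arranged in the same way. Crisp3, a secretory protein, lay at 3.90 and 5.42 at 17 dpp and -5.30 and -5.61 at 26 dpp, at least 1045-fold lower (limma adjusted p = 0.000528), and at -7.60 and -7.70 in the Ip6k1-/- testes of 17 dpp. Rnase12 was at least 167-fold, Wfdc15b at least 161-fold, Crisp1 at least 148-fold, Cdh16 at least 136-fold and Lcn5 at least 91.3-fold lower. Of these, Cdh16 lay between in the Ip6k1-/- testes, at -2.80 and -3.25, and the others were low there. Crisp1, Lcn5, Rnase12 and Wfdc15b are on the epididymal list, whose sums are given above; the part of that tissue in these falls was not tested.

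Bcan, Dlk1 and H19 were high at 17 dpp in both genotypes. Bcan, a proteoglycan named brevican, lay at 2.67 and 2.49 at 17 dpp and -2.87 and -2.80 at 26 dpp and at 2.51 and 2.54 in the Ip6k1-/- testes of 17 dpp; it fell with a difference of -5.41 ± 0.16 (SE, limma adjusted p = 0.000161), with its probe at chr3:87791457-87791516 on mm9. Dlk1, an imprinted membrane protein of immature Leydig cells, lay at 3.47 and 3.96 at 17 dpp and -0.73 and -1.36 at 26 dpp and at 4.59 and 3.42 in the Ip6k1-/- testes, a difference of -4.76 ± 0.31 (SE, limma adjusted p = 0.00078). H19, an imprinted fetal non-coding RNA, lay at 2.08 and 3.31 at 17 dpp and -1.31 and -1.87 at 26 dpp and at 3.09 and 1.75, a difference of -4.28 ± 0.48 (SE, limma adjusted p = 0.00246) on the probe used. The 7 probes of H19 ran from -4.28 to 0.82, so its size and direction depend on the probe. All 4 testes of 17 dpp thus held these 3 genes, on the probes used, above both wild type testes of 26 dpp. Ly6h (-5.37) and Pcbd1 (-4.40) fell too, with 0.33 and -0.60 and -0.98 and -1.56 in the Ip6k1-/- testes.

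**Figure D2:**
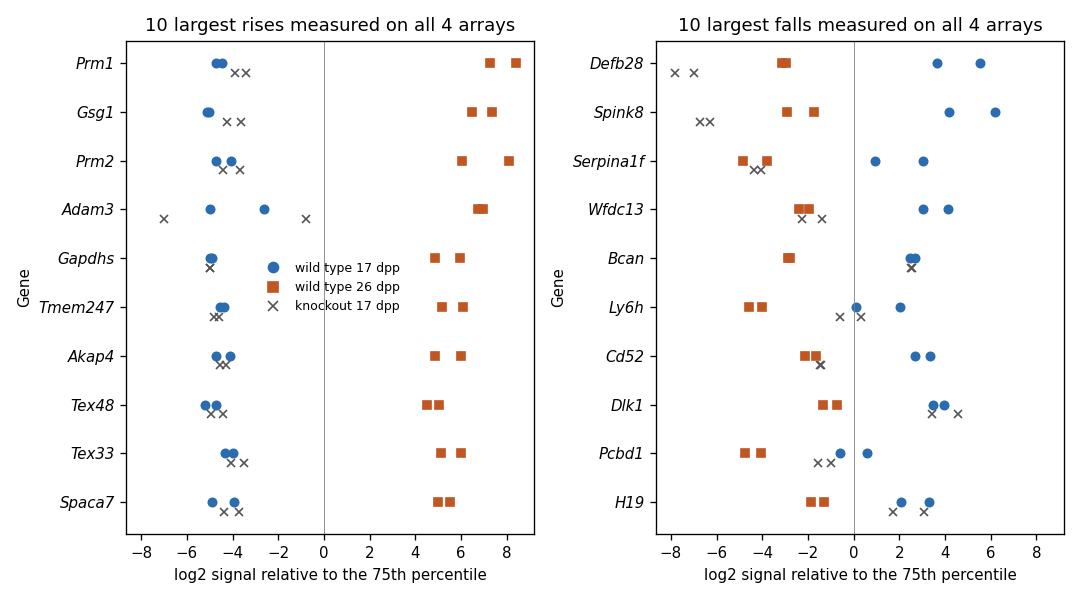
Log2 level relative to the 75th percentile on each array for the 10 largest rises (left) and 10 largest falls (right). They were ranked among called genes well above background on all 4 wild type arrays, without clone, predicted-gene or accession names and genes with no current symbol. Blue circles are wild type 17 dpp, orange squares wild type 26 dpp and grey crosses Ip6k1-/- 17 dpp (2 arrays each). In the left panel the crosses lie near the circles or around them; in the right panel the crosses of Defb28, Spink8, Serpina1f, Wfdc13 and Cd52 lie near or below the squares and those of Bcan, Dlk1 and H19 near the circles.

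Read by stage, genes of spermatogonia fell and genes of spermatids rose, with the turn inside the genes of meiosis. Of 24 listed genes of undifferentiated spermatogonia, the stem and progenitor cells, 22 were measured; 17 fell and 1 rose, beside 44.6% and 26.3% of all genes, with a median of -2.34, or -1.89 relative to the median of all genes. With normexp, another background correction that keeps dim signals positive, that median is -1.40. In bulk RNA of a whole testis, fewer cells of a type and less RNA per cell cannot be told apart. Zbtb16, a transcription factor of stem cell maintenance, lay at 2.48 and 2.83 at 17 dpp and 0.032 and -0.43 at 26 dpp and fell with a difference of -2.85 ± 0.24 (SE, limma adjusted p = 0.00138). Sall4, another such factor, lay at 0.45 and -0.041 at 17 dpp and -2.53 and -3.02 at 26 dpp and fell with a difference of -2.98 ± 0.28 (SE, limma adjusted p = 0.00161). Both genes lay lower on both 26 dpp arrays than on both 17 dpp arrays, as 56% of all genes did. Sall4 has 2 probes kept, and the other one differed by -0.35, so its size depends on the probe. Leaving out a 17 dpp array turns the choice to that probe. Sall4 lost its call without 17 dpp replicate 1 or 17 dpp replicate 2 (limma adjusted p up to 0.394).

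Ret, part of the receptor for the niche factor GDNF, fell with a difference of -3.19 ± 0.31 (SE, limma adjusted p = 0.00178) and was well above background on 1 of the 2 arrays of 26 dpp. Its co-receptor Gfra1 was near background at 17 dpp and not above it at 26 dpp, at -4.40 and -4.85 at 17 dpp and -5.42 and -5.50 at 26 dpp, and was at least 1.75-fold lower (limma adjusted p = 0.0237). The epithelial cadherin Cdh1 lay at -1.29 and -0.19 at 17 dpp and -5.18 and -5.27 at 26 dpp, at least 22.3-fold lower. Id4, an inhibitor of DNA-binding proteins used as a stem cell marker, was the 1 gene of the list that rose, lying at 2.38 and 2.77 at 17 dpp and 3.54 and 3.60 at 26 dpp, a difference of 0.99 ± 0.20 (SE, limma adjusted p = 0.0113). Gfra1 lost its call without 17 dpp replicate 1, 26 dpp replicate 1 or 26 dpp replicate 2 (limma adjusted p up to 0.0859).

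Of 17 measured genes of differentiating spermatogonia and meiotic entry, 14 fell and 2 rose, beside 44.6% and 26.3% of all genes. Their median of -1.78 comes near 0 (-0.16) under spike-in scaling. Kit, the receptor that marks differentiating spermatogonia, lay at 2.23 and 2.10 at 17 dpp and 0.28 and -0.13 at 26 dpp and fell with a difference of -2.09 ± 0.21 (SE, limma adjusted p = 0.00181). Stra8, the retinoic acid target that opens meiosis, lay at 5.24 and 5.39 at 17 dpp and 3.53 and 3.53 at 26 dpp and fell with a difference of -1.78 ± 0.15 (SE, limma adjusted p = 0.00136). Sohlh1 (-2.76), a transcription factor, Crabp1 (-2.78), which binds retinoic acid, and Dazl (-1.56), an RNA-binding protein, fell as well. Against these, Dmrtb1, a transcription factor that times the switch from mitosis to meiosis, lay at 0.18 and -0.044 at 17 dpp and 4.05 and 4.32 at 26 dpp and rose by 4.11 ± 0.19 (SE, limma adjusted p = 0.000352), and Rec8, a meiotic cohesin, rose by 1.20 ± 0.17 (SE, limma adjusted p = 0.00414).

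Of 21 genes of S phase and proliferation 13 fell (61.9%) and 3 rose (14.3%), beside 44.6% and 26.3% of all genes (median -0.89; positive under spike-in scaling). Cdt1 (-2.31), Mcm2 (-2.21), both of replication licensing, and E2f1 (-2.20), a transcription factor of S phase, fell most. Mki67, a proliferation marker, lay at 4.28 and 4.23 at 17 dpp and 3.0 and 2.93 at 26 dpp and fell with a difference of -1.29 ± 0.14 (SE, limma adjusted p = 0.00238). Pcna (-0.049), the sliding clamp, and Top2a (0.0034), a topoisomerase, did not pass the test, and Mcm7 (0.63), Gins1 (0.83) and Gins2 (0.72), parts of the replicative helicase, rose. Gins1 lost its call without 17 dpp replicate 1 (limma adjusted p = 0.0542). Gins2 lost its call without 17 dpp replicate 2, 26 dpp replicate 1 or 26 dpp replicate 2 (limma adjusted p up to 0.0923). Mcm7 lost its call without any 1 of the 4 arrays (limma adjusted p up to 0.0672).

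Of 36 measured genes of early meiotic prophase 10 rose (27.8%) and 13 fell (36.1%), beside 26.3% and 44.6% of all genes, with a median of -0.22 that is 0.24 above that of all genes and turns positive under spike-in scaling. Prdm9, which marks recombination hotspots, lay at 0.44 and 0.34 at 17 dpp and -1.12 and -1.04 at 26 dpp and fell with a difference of -1.47 ± 0.15 (SE, limma adjusted p = 0.00191). Dmc1, the meiotic recombinase, fell with a difference of -1.31 ± 0.22 (SE, limma adjusted p = 0.00697) and Tex11, a gene of crossover formation, with a difference of -2.26 ± 0.16 (SE, limma adjusted p = 0.000907). Spo11, which makes the breaks that start recombination, moved the other way: it lay at -0.51 and -0.63 at 17 dpp and 1.76 and 1.97 at 26 dpp and rose by 2.44 ± 0.16 (SE, limma adjusted p = 0.000832).

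Among axis and synaptonemal complex genes, Sycp3 fell with a difference of -0.77 ± 0.15 (SE, limma adjusted p = 0.0107) while Syce1 lay at 3.96 and 3.97 at 17 dpp and 6.06 and 6.28 at 26 dpp and rose by 2.20 ± 0.16 (SE, limma adjusted p = 0.000985). Sycp1 lay at 4.30 and 4.35 at 17 dpp and 3.94 and 3.80 at 26 dpp and did not pass the test, with a difference of -0.46 ± 0.15 (SE, limma adjusted p = 0.05003). Hormad1, an axis protein, had a difference of -0.020 ± 0.16 (SE, limma adjusted p = 0.919) and did not pass either. The ratio between Syce1 and Sycp3 within each array therefore shifted, whatever the scaling. Brme1, listed on the array as 4930432K21Rik, rose by 1.75 ± 0.18 (SE, limma adjusted p = 0.00205). Sycp3 lost its call without 17 dpp replicate 2 (limma adjusted p = 0.0525).

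Later in prophase most genes rose. Of 24 genes of pachytene and diplotene 21 were higher and 3 lower, beside 26.3% and 44.6% of all genes (median 2.87). Hspa2, a chaperone of spermatocytes, lay at 4.40 and 4.57 at 17 dpp and 6.52 and 6.57 at 26 dpp and rose by 2.07 ± 0.15 (SE, limma adjusted p = 0.00104). Ccna1, the meiotic A-type cyclin, lay at -4.46 and -4.35 at 17 dpp and 3.68 and 3.69 at 26 dpp and rose by 8.09 ± 0.15 (SE, limma adjusted p = 0.000137). H1f6, the testis linker histone, rose by 2.24 ± 0.15 (SE, limma adjusted p = 0.000888), Pdha2, a germ cell pyruvate dehydrogenase subunit, by 2.80 ± 0.25 (SE, limma adjusted p = 0.00153), and Mybl1, a transcription factor of pachytene, by 0.91 ± 0.19 (SE, limma adjusted p = 0.0143). Ccnb3 (-1.90), a cyclin of early prophase, and Ccnb1ip1 (-0.49), a gene of crossover formation, were among those that fell. Ccnb1ip1 lost its call without any 1 of the 4 arrays (limma adjusted p up to 0.115). Mybl1 lost its call without 17 dpp replicate 1 or 17 dpp replicate 2 (limma adjusted p up to 0.0708).

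Of 27 measured genes of the meiotic divisions 16 rose and 4 fell, beside 26.3% and 44.6% of all genes (median 0.95). Aurkc, the germ cell Aurora kinase, lay at 1.06 and 0.92 at 17 dpp and 4.14 and 3.92 at 26 dpp and rose by 3.04 ± 0.17 (SE, limma adjusted p = 0.000547). Cdc25c (0.95), a phosphatase that activates the division kinase, rose too, while Cdk1, that kinase, differed by 0.023 ± 0.15 (SE, limma adjusted p = 0.897) and Fbxo43, an inhibitor of the anaphase complex, by 1.32 ± 0.44 (SE, limma adjusted p = 0.0519), and neither passed the test. Cdc25b (-1.98), Cenpa (-2.25), the centromere histone, and Sgo1 (-2.07), a protector of cohesion, fell. Ccnb1, cyclin B1, rose by 1.43 on the probe used and fell by 1.59 on another of its 3 probes, so its direction depends on the probe. It was the 1 named gene with a probe over 2-fold higher and another over 2-fold lower, as 261 (3.56%) of 7338 genes with several probes had. Of the named genes, 20 had probes whose differences lay over 2-fold apart. Besides Ccnb1, the sign depends on the probe in H19, Celf1 (-1.62 to 0.40), Ppp3cc (-0.28 to 2.39) and Kdr (-1.33 to 0.11). Cdc25c lost its call without 17 dpp replicate 2, 26 dpp replicate 1 or 26 dpp replicate 2 (limma adjusted p up to 0.112).

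The piRNA pathway silences transposons in germ cells and shapes the RNA of spermatocytes and spermatids. Of its 18 genes 13 rose and 2 fell, beside 26.3% and 44.6% of all genes (median 1.50). Piwil1, the PIWI protein of pachytene, lay at -1.12 and 0.098 at 17 dpp and 3.51 and 3.54 at 26 dpp and rose by 4.04 ± 0.44 (SE, limma adjusted p = 0.00226). Piwil2 differed by 0.059 ± 0.15 (SE, limma adjusted p = 0.738) and did not pass the test. Piwil4, the PIWI protein of fetal and early germ cells, lay at -2.67 and -3.16 at 17 dpp and -5.42 and -5.87 at 26 dpp and was at least 5.7-fold lower (limma adjusted p = 0.00183). The 3 PIWI genes thus differed in their changes. Tdrd6, a scaffold of the chromatoid body, rose by 8.13 ± 0.15 (SE, limma adjusted p = 0.000137), Gtsf1 by 2.90 ± 0.18 (SE, limma adjusted p = 0.000715), and the helicases Ddx25 and Ddx4 by 2.39 and 1.22, while Tdrkh, a mitochondrial Tudor protein, fell with a difference of -0.86 ± 0.16 (SE, limma adjusted p = 0.0106). Tdrkh lost its call without 17 dpp replicate 1 (limma adjusted p = 0.0566).

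Of 18 regulators of transcription and RNA in spermatids 12 rose and 4 fell, beside 26.3% and 44.6% of all genes (median 1.40). Crem, the activator of many spermatid genes, lay at -0.37 and -0.043 at 17 dpp and 4.34 and 4.63 at 26 dpp and rose by 4.69 ± 0.21 (SE, limma adjusted p = 0.000337). Its partner Fhl5 lay at -3.45 and -3.47 at 17 dpp and 4.21 and 5.52 at 26 dpp and rose by 8.33 ± 0.47 (SE, limma adjusted p = 0.000577). Rfx2, a factor for cilium genes, lay at -2.78 and -2.66 at 17 dpp and 1.11 and 1.27 at 26 dpp and rose by 3.91 ± 0.16 (SE, limma adjusted p = 0.00027). The general factors of germ cells Gtf2a1l (5.81) and Tbpl1 (2.85), the poly(A) polymerase Papolb (6.81) and Sox30 (1.31) rose as well. Taf7l (-1.90), an X-linked germ cell subunit of TFIID, Celf1 (-1.62), an RNA-binding protein, and Spata2 (-1.03) fell, and Cstf2t (0.36), a germ cell cleavage factor, did not pass the test.

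The spermatid lists were almost wholly higher, beside 26.3% of all genes. All 24 acrosome and egg-binding genes rose (median 6.51), as did all 27 genes of the tail sheath and dense fibres (median 7.60). For both lists every member lay higher on both 26 dpp arrays than on both 17 dpp arrays, against 32.4% of all genes. Of 26 axoneme genes 24 rose and 1 fell (median 5.18), and of 12 sperm ion channel genes 11 rose and 1 fell (median 5.09). Of 15 genes of chromatin condensation 14 rose and 1 fell (median 9.73). In the order given, 5, 9, 2, 3 and 6 genes of these lists were not above background at 17 dpp. They entered only through 26 dpp, so their direction was largely set by that filter and is no support for the shares. In these medians they stand at fitted values. With such genes at their bounds the medians are 6.49, 7.26, 5.18, 4.73 and 9.28 in the order given, and with normexp background correction 5.39, 5.62, 4.32, 4.08 and 6.98.

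In the acrosome, Acr, its main protease acrosin, lay at -2.95 and -2.32 at 17 dpp and 2.94 and 3.34 at 26 dpp and rose by 5.77 ± 0.29 (SE, limma adjusted p = 0.000454). Izumo1, the sperm protein that binds the egg, lay at -4.14 and -4.22 at 17 dpp and 0.50 and 1.21 at 26 dpp and rose by 5.03 ± 0.28 (SE, limma adjusted p = 0.000571). Acrbp, which binds proacrosin, rose by 5.29 ± 0.21 (SE, limma adjusted p = 0.000268). Spaca3, a lysozyme-like protein, was not above background at 17 dpp and was at least 1665-fold higher, Acrv1 at least 562-fold and Spam1, the sperm hyaluronidase, at least 97.1-fold higher.

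In the tail, Odf1, a dense fibre protein, lay at -7.96 and -8.03 at 17 dpp and -0.82 and 0.32 at 26 dpp, at least 43.7-fold higher (limma adjusted p = 0.000508). Akap4 lay at -4.12 and -4.72 at 17 dpp and 4.88 and 6.01 at 26 dpp and its neighbour in the sheath Akap3 at -4.62 and -5.40 at 17 dpp and 1.57 and 2.39 at 26 dpp, differences of 9.87 ± 0.46 (SE, limma adjusted p = 0.000373) and 6.99 ± 0.41 (SE, limma adjusted p = 0.000632). In the axoneme, the dynein heavy chains Dnah8 and Dnah1 rose by 5.16 ± 0.33 (SE, limma adjusted p = 0.000763) and 3.40 ± 0.15 (SE, limma adjusted p = 0.000354), and Foxj1, the master regulator of motile cilia, lay at -3.25 and -2.87 at 17 dpp and 2.36 and 2.38 at 26 dpp, a difference of 5.43 ± 0.19 (SE, limma adjusted p = 0.000224). The tektin Tekt4 rose by 7.14, Rsph6a of the radial spoke by 8.12 and Tekt3 was at least 67.2-fold higher. Rsph4a, a radial spoke protein of other cilia, fell with a difference of -0.68 ± 0.14 (SE, limma adjusted p = 0.0141), which turns positive under spike-in scaling. Rsph4a lost its call without any 1 of the 4 arrays (limma adjusted p up to 0.0636).

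Among channels, Catsper1, the pore of the sperm calcium channel, lay at -7.84 and -7.93 at 17 dpp and 2.04 and 2.67 at 26 dpp, at least 266-fold higher, and Catsper3 was at least 58-fold higher (limma adjusted p = 0.000155 and 0.00104). Slc9c1, the sperm sodium-proton exchanger, rose by 7.33 ± 0.41 (SE, limma adjusted p = 0.000549) and Kcnu1, the sperm potassium channel, by 3.39 ± 0.15 (SE, limma adjusted p = 0.000316). Hvcn1, a proton channel, lay at -1.30 and -1.08 at 17 dpp and -2.53 and -2.09 at 26 dpp and fell with a difference of -1.12 ± 0.22 (SE, limma adjusted p = 0.0112), which turns positive under spike-in scaling. Hvcn1 lost its call without 17 dpp replicate 2 (limma adjusted p = 0.0629).

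In chromatin condensation, Tnp1 and Tnp2, the transition proteins that stand between histones and protamines, lay at -2.19 and -2.22 at 17 dpp and 6.34 and 8.17 at 26 dpp and at -6.54 and -5.62 at 17 dpp and 5.87 and 7.75 at 26 dpp. Their differences were 9.46 ± 0.64 (SE, limma adjusted p = 0.000843) and 12.89 ± 0.73 (SE, limma adjusted p = 0.000581). Tnp2 was well above background on 1 of the 2 arrays of 17 dpp. Replicate 2 of 26 dpp was above replicate 1 by a median of 1.26 over the 15 genes of the list and by 0.82 over the tail list, against -0.07 over all genes, so the 26 dpp testes differed from each other in these genes more than in most. The fall in the list was Rnf8, a ubiquitin ligase, with -0.92 ± 0.17 (SE, limma adjusted p = 0.00929), which turns positive under spike-in scaling. Rnf8 lost its call without 17 dpp replicate 1 (limma adjusted p = 0.0529).

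Prm1, Prm2, Prm3 and Tnp2 lie next to each other in 1 cluster. Of the cluster and its 4 neighbours, Tnp2 and the protamine genes rose, Prm3 by 8.43 ± 0.39 (SE, limma adjusted p = 0.000374). On the flanks, Socs1, an inhibitor of cytokine signalling, lay at 1.99 and 1.97 at 17 dpp and 0.30 and 0.51 at 26 dpp and fell with a difference of -1.57 ± 0.16 (SE, limma adjusted p = 0.00193), Rmi2 was at least 2.4-fold lower, Dexi fell with a difference of -0.65 ± 0.15 (SE, limma adjusted p = 0.0162) and Clec16a rose by 0.88 ± 0.14 (SE, limma adjusted p = 0.00656). Under spike-in scaling Socs1, Rmi2 and Dexi become 0.05, 0.20 and 0.97, far below the cluster. Dexi lost its call without 17 dpp replicate 1, 17 dpp replicate 2 or 26 dpp replicate 2 (limma adjusted p up to 0.0705). Rmi2 lost its call without 17 dpp replicate 1 (limma adjusted p = 0.0667).

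**Figure D3:**
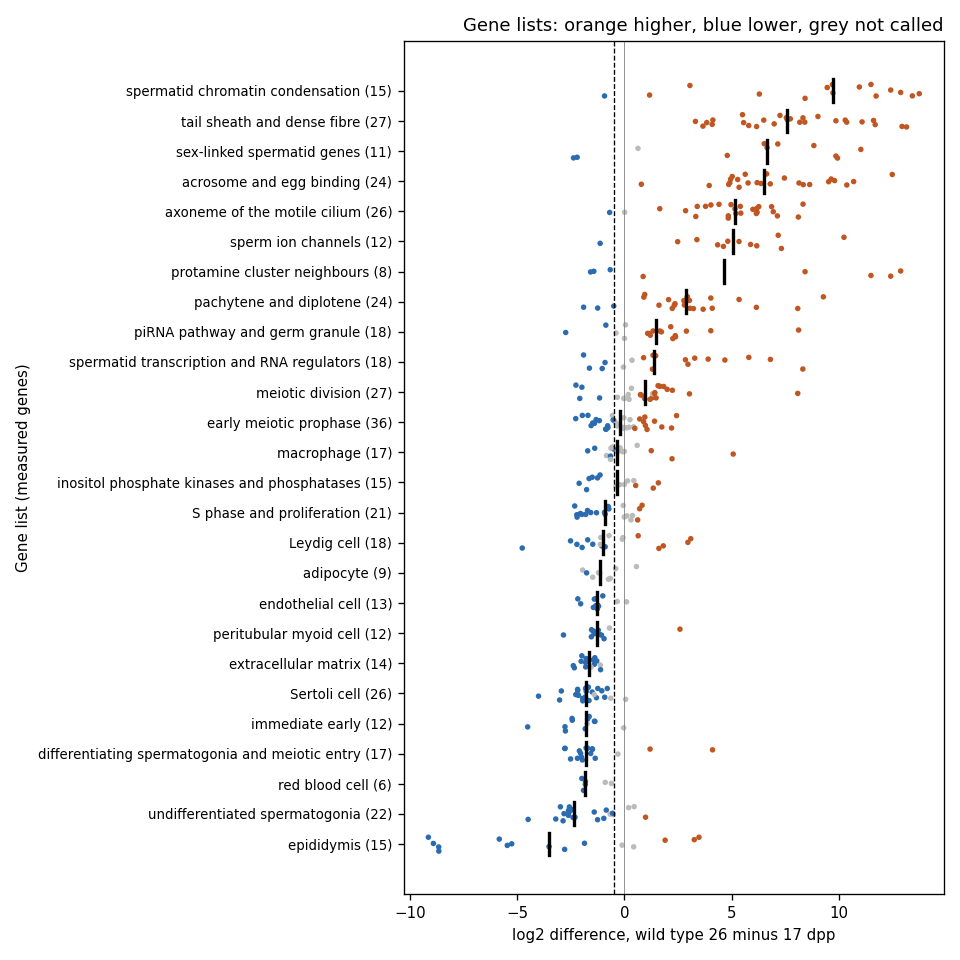
Each point is 1 measured gene of 26 lists (numbers in brackets), placed by its log2 difference between 26 and 17 dpp in wild type testis; thick bars are list medians, the dashed line is the median of all genes (-0.46) and the grey line is 0. Medians run from -3.51 for epididymal genes to 9.73 for chromatin condensation. With genes not above background at their bounds these are -2.78 and 9.28, and with normexp background correction -1.90 and 6.98. Under spike-in scaling all points move right by 1.62. The medians of the early meiotic prophase, macrophage, inositol phosphate, S phase, Leydig, adipocyte, endothelial and peritubular lists then become positive. Those of the matrix, Sertoli, immediate early, differentiating spermatogonia and red blood cell lists then lie between -0.19 and -0.04.

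Genes of the X and Y chromosomes moved in both directions. Of 1127 genes whose probe lies on X in the files, 22.1% were higher and 59.2% lower, while over the autosomes the shares ranged from 22.4% to 31.4% higher and from 40.1% to 47.1% lower. The X median was -1.16, or -0.71 relative to all genes, below that of every autosome (-0.52 to -0.31). At the same time 12.5% of X genes rose over 16-fold, against 6.73% to 11% of the genes of an autosome. The X chromosome thus held a larger share of falls and of very large rises than any autosome, a difference between chromosomes that was not tested. The X median minus that of the autosomes was -0.72, which a constant shift per array cannot move. With normexp background correction it was -0.41 with 75th percentile scaling and -0.42 with quantile normalization.

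**Figure D4:**
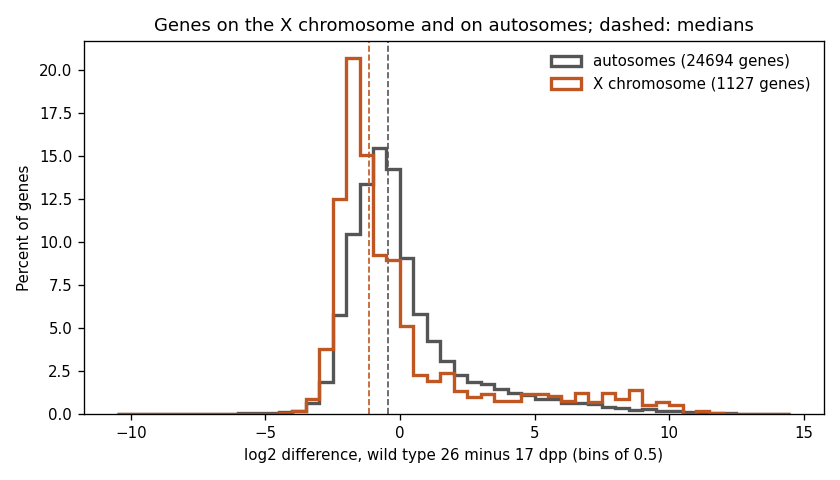
Percent of genes in bins of 0.5 of the log2 difference (26 minus 17 dpp, wild type), for 24694 autosomal genes in grey and 1127 X genes in orange, with dashed medians at -0.44 and -1.16. The X genes peak further left and have a low shoulder among the rises; under spike-in scaling both curves move right by 1.62.

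Among 11 measured sex-linked genes of spermatids 8 rose and 2 fell, beside 26.3% and 44.6% of all genes. The multicopy genes Slx, Slxl1 (both X) and Sly (Y) rose. Slx lay at 0.46 and 0.31 at 17 dpp and 5.09 and 5.29 at 26 dpp, a difference of 4.80 ± 0.17 (SE, limma adjusted p = 0.000215). Slxl1 lay at -1.17 and -1.62 at 17 dpp and 5.09 and 5.18 at 26 dpp, a difference of 6.53 ± 0.21 (SE, limma adjusted p = 0.000199). Sly lay at -1.01 and -0.97 at 17 dpp and 5.65 and 5.69 at 26 dpp, a difference of 6.66 ± 0.14 (SE, limma adjusted p = 0.000139). Copies of such families can share signal, so the probes are not tied to 1 copy. Cypt3 was at least 920-fold higher, and Cypt1 and Ssty1 rose by 11.03 and 8.84, Cypt1 being well above background on 1 of the 2 arrays of 17 dpp. Rbmy, a Y-linked RNA-binding protein of earlier germ cells, lay at 5.29 and 4.99 at 17 dpp and 3.12 and 2.77 at 26 dpp and fell with a difference of -2.19 ± 0.21 (SE, limma adjusted p = 0.00175), Tktl1 on X fell with a difference of -2.36 ± 0.19 (SE, limma adjusted p = 0.00122), and Zfy2 on Y did not pass the test, with a difference of 0.64 ± 0.22 (SE, limma adjusted p = 0.056).

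Many germ cell genes have a counterpart used in most tissues, often as a retrogene copy of it. Both genes were tested in 33 of 34 listed pairs. The germ cell gene rose in 29 and fell in 2, and the counterpart rose in 4 and fell in 25, with medians of 2.87 and -1.41. Over all genes 26.3% were higher and 44.6% lower, with a median of -0.46. In 22 pairs the 2 genes were called in opposite directions.

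In glycolysis, Pgk2, the germ cell phosphoglycerate kinase, lay at -4.61 and -4.09 at 17 dpp and 4.69 and 5.18 at 26 dpp and rose by 9.28 ± 0.28 (SE, limma adjusted p = 0.000178), while Pgk1 lay at 3.44 and 3.15 at 17 dpp and 2.29 and 2.27 at 26 dpp and fell with a difference of -1.02 ± 0.17 (SE, limma adjusted p = 0.00743). Gapdhs, given above, rose while Gapdh fell with a difference of -1.56 ± 0.16 (SE, limma adjusted p = 0.00191). Under spike-in scaling Pgk1 and Gapdh become 0.60 and 0.06. Ldhc and Ldha, germ cell and general lactate dehydrogenase subunits, both rose, by 4.10 ± 0.48 (SE, limma adjusted p = 0.00264) and 3.01 ± 0.16 (SE, limma adjusted p = 0.000538). Gk2 and Gk, glycerol kinases, also both rose, by 6.66 ± 0.24 (SE, limma adjusted p = 0.000224) and 5.91 ± 0.23 (SE, limma adjusted p = 0.000254). The probes of Gapdh, Pgk1 and Eno1 are placed by the files on another chromosome than the RefSeq gene, so their signal is not tied to that gene alone.

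Among mitochondrial and ribosomal pairs, Cyct and Cycs, the cytochromes c of testis and of other tissues, differed by 2.07 ± 0.24 (SE, limma adjusted p = 0.00256) and -1.75 ± 0.16 (SE, limma adjusted p = 0.00163). Cox8c and Cox8a of cytochrome oxidase differed by 3.23 ± 0.32 (SE, limma adjusted p = 0.00186) and -1.97 ± 0.22 (SE, limma adjusted p = 0.00241). Rpl10l and Rpl10 of the large ribosomal subunit differed by 1.85 ± 0.18 (SE, limma adjusted p = 0.00188) and -1.82 ± 0.21 (SE, limma adjusted p = 0.0027), and Rpl39l and Rpl39 by 2.0 ± 0.18 (SE, limma adjusted p = 0.0015) and -1.93 ± 0.24 (SE, limma adjusted p = 0.00314). In each of these 4 pairs the gene of germ cells rose and its counterpart fell. Exceptions were Nxf2, an X-linked RNA export factor, which fell with a difference of -1.83 ± 0.15 (SE, limma adjusted p = 0.00124) while Nxf1 did not pass the test, with a difference of 0.11 ± 0.15 (SE, limma adjusted p = 0.529), and Taf7l, which fell together with Taf7 (-1.90 and -0.84). Taf7 lost its call without 17 dpp replicate 1, 26 dpp replicate 1 or 26 dpp replicate 2 (limma adjusted p up to 0.105).

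**Figure D5:**
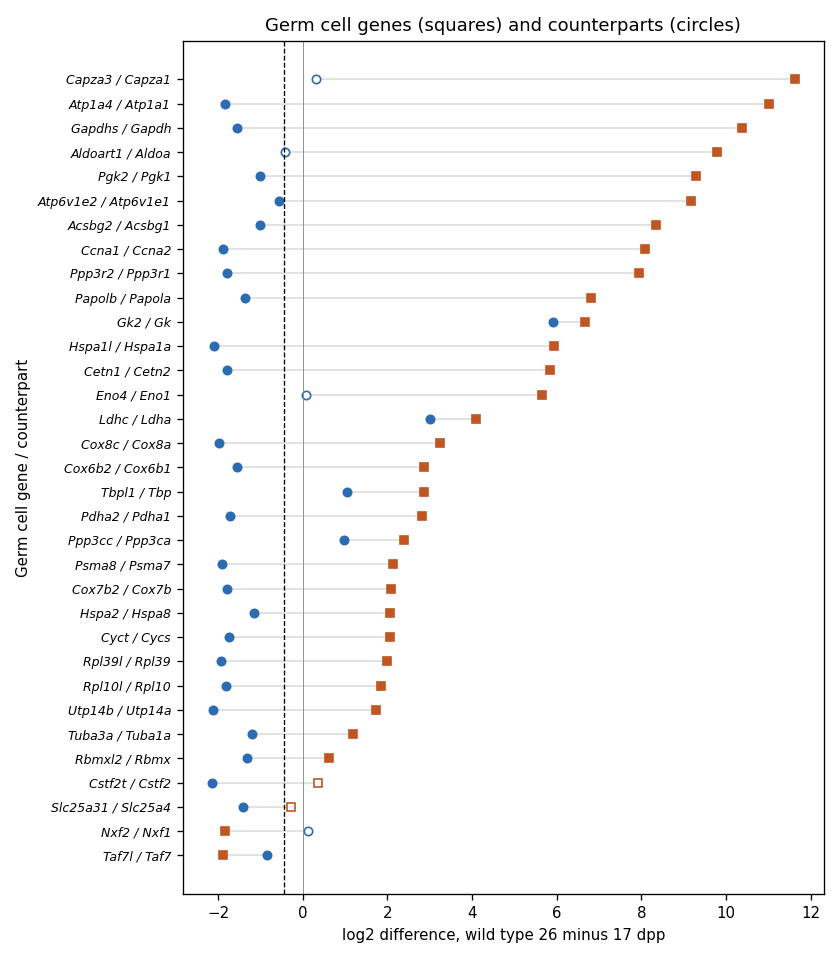
Log2 difference between 26 and 17 dpp in wild type testis for 33 pairs: orange squares are the germ cell genes, blue circles their counterparts, open symbols did not pass the test, and the dashed line is the median of all genes (-0.46). Capza3 was not well above background at 17 dpp, so its place at the top is a fitted value with no measured rank (at least 804-fold higher), and 25 counterparts lie to the left of 0 as called falls; under spike-in scaling all symbols move right by 1.62 and most counterparts pass 0.

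The Sertoli list fell almost as a whole. Of 27 listed genes 26 were measured, 23 fell and none rose, beside 44.6% of all genes lower. The median was -1.76, or -1.31 relative to all genes, and comes near 0 (-0.14) under spike-in scaling. Wt1, given above, fell with a difference of -1.77 ± 0.15 (SE, limma adjusted p = 0.0014). Sox9 and Gata4, transcription factors of Sertoli cell identity, lay at 2.05 and 1.92 at 17 dpp and 0.29 and 0.060 at 26 dpp and at 1.44 and 1.10 at 17 dpp and -0.55 and -0.51 at 26 dpp. Fshr, the receptor for follicle stimulating hormone, lay at 0.18 and 0.15 at 17 dpp and -2.22 and -1.79 at 26 dpp and fell with a difference of -2.17 ± 0.20 (SE, limma adjusted p = 0.00166). All 4 genes lay lower on both 26 dpp arrays than on both 17 dpp arrays, as 56% of all genes did.

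Amh, anti-Müllerian hormone of immature Sertoli cells, lay at -3.02 and -3.01 at 17 dpp and -5.39 and -5.16 at 26 dpp and fell with a difference of -2.26 ± 0.16 (SE, limma adjusted p = 0.000946). It was well above background on 1 of the 2 arrays of 26 dpp. Erbb4, a growth factor receptor, lay at -0.53 and -0.57 at 17 dpp and -3.40 and -3.56 at 26 dpp and fell with a difference of -2.93 ± 0.15 (SE, limma adjusted p = 0.000474), and Hsd17b1, a steroid enzyme, with a difference of -3.02 ± 0.24 (SE, limma adjusted p = 0.00116). Krt18 had the largest fall of the list, -4.0 ± 0.74 (SE, limma adjusted p = 0.00929), but its 17 dpp levels of 0.85 and 2.92 stood above those of the Ip6k1-/- testes of 17 dpp (-1.36 and -1.71). The inhibin subunits Inhbb and Inha fell with differences of -1.94 ± 0.20 (SE, limma adjusted p = 0.00201) and -0.79 ± 0.19 (SE, limma adjusted p = 0.0212), and Cldn11, of the blood-testis barrier, with a difference of -1.64 ± 0.15 (SE, limma adjusted p = 0.00157). Rhox5, an androgen target, did not pass the test, with a difference of -0.63 ± 0.29 (SE, limma adjusted p = 0.118). Inha lost its call without 17 dpp replicate 1, 26 dpp replicate 1 or 26 dpp replicate 2 (limma adjusted p up to 0.0851).

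Of 18 measured Leydig cell genes 5 rose (27.8%) and 8 fell (44.4%), shares near the 26.3% and 44.6% of all genes (median -0.97; positive under spike-in scaling). Cyp11a1, the first enzyme of steroid synthesis, lay at -1.21 and -3.61 at 17 dpp and 1.13 and 0.25 at 26 dpp and rose by 3.10 ± 0.88 (SE, limma adjusted p = 0.0332). Cyp17a1, given above, rose by 2.97 ± 0.78 (SE, limma adjusted p = 0.0268), Hsd17b3, the enzyme of the last step to testosterone, by 1.82 ± 0.22 (SE, limma adjusted p = 0.0028), and Hsd3b6, an enzyme of adult Leydig cells, by 1.61 ± 0.46 (SE, limma adjusted p = 0.0328). Dlk1, given above, and Akr1c14, an enzyme of immature Leydig cells, fell, the latter with a difference of -1.05 ± 0.19 (SE, limma adjusted p = 0.00847). Cyp11a1 lost its call without 26 dpp replicate 1 or 26 dpp replicate 2 (limma adjusted p up to 0.111). Cyp17a1 lost its call without 26 dpp replicate 1 or 26 dpp replicate 2 (limma adjusted p up to 0.0921). Hsd3b6 lost its call without 26 dpp replicate 1 or 26 dpp replicate 2 (limma adjusted p up to 0.0997).

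The 17 dpp replicates differed over 2-fold in 6 of the 18 Leydig genes. Star, which brings cholesterol into mitochondria, lay at 0.16 and -1.94 at 17 dpp and -1.66 and -2.35 at 26 dpp and did not pass the test, with a difference of -1.12 ± 0.77 (SE, limma adjusted p = 0.25); its 17 dpp replicate 1 was the higher, as for Cyp11a1 and Cyp17a1. The same replicate was the lower for 8 of 9 adipocyte genes. The exception, Cidea (4.63 and 4.20 at 17 dpp), was also the 1 gene called. Cidea fell with a difference of -1.76 ± 0.21 (SE, limma adjusted p = 0.00278). Fabp4 (1.06 and 6.59 at 17 dpp and 4.04 and 1.32 at 26 dpp), Cfd (0.23 and 6.70 at 17 dpp and 2.64 and 0.41 at 26 dpp) and Plin1 (-0.76 and 1.40 at 17 dpp and 0.53 and -1.19 at 26 dpp) did not pass the test.

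Other cells of the tubule wall, vessels and matrix were lower. Of 12 peritubular myoid genes 10 fell and 1 rose (median -1.29), beside 44.6% of all genes lower and 26.3% higher. Of 13 endothelial genes 11 fell (median -1.27) and of 14 matrix genes 12 fell (median -1.66), beside the same 44.6%. The first and second of these medians turn positive under spike-in scaling, and the matrix median comes near 0 (-0.04). Acta2, smooth muscle actin, lay at 5.51 and 5.69 at 17 dpp and 4.21 and 3.93 at 26 dpp and fell with a difference of -1.53 ± 0.18 (SE, limma adjusted p = 0.00275). Myh11 and Cnn1, also of smooth muscle, fell with differences of -1.15 and -1.21, and Lmod1 was at least 3.3-fold lower. Actg2, listed with them, lay at 0.50 and 1.29 at 17 dpp and 3.02 and 3.95 at 26 dpp and rose by 2.60 ± 0.44 (SE, limma adjusted p = 0.00734). Myh11 lost its call without 17 dpp replicate 1 or 26 dpp replicate 2 (limma adjusted p up to 0.0593).

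Of the vessels, Pecam1 and Cdh5, adhesion proteins of endothelium, fell with differences of -1.0 ± 0.18 (SE, limma adjusted p = 0.00804) and -2.03 ± 0.32 (SE, limma adjusted p = 0.00602), Robo4 with a difference of -2.17 and Emcn with a difference of -1.44, and Kdr, the receptor for VEGF, did not pass the test, with a difference of 0.11 ± 0.15 (SE, limma adjusted p = 0.558). Of the matrix, Fn1, fibronectin, lay at 4.50 and 4.88 at 17 dpp and 2.58 and 2.06 at 26 dpp and fell with a difference of -2.37 ± 0.26 (SE, limma adjusted p = 0.00235), and Lamb1, of basement membranes, with a difference of -2.33 ± 0.15 (SE, limma adjusted p = 0.000764). Col4a1, Col3a1 and Dcn fell with differences of -1.39, -1.28 and -2.01, and Col1a1 did not pass the test, with a difference of -1.12 ± 0.39 (SE, limma adjusted p = 0.0596). Red blood cell genes fell in 4 of 6 measured, beside 44.6% of all genes. Their median of -1.81 comes near 0 (-0.19) under spike-in scaling. Those that fell were Hba-a1 (-1.81), Hba-a2 (-1.90), Hbb-bs (-1.81) and Hbb-bt (-1.98), near-identical copies that can share signal. Col3a1 lost its call without 17 dpp replicate 1, 17 dpp replicate 2 or 26 dpp replicate 2 (limma adjusted p up to 0.162). Hba-a1 lost its call without 17 dpp replicate 2 (limma adjusted p = 0.0586). Hbb-bt lost its call without 17 dpp replicate 1 or 17 dpp replicate 2 (limma adjusted p up to 0.0826).

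Of 17 macrophage genes 3 rose, 4 fell and 10 did not pass the test, beside 26.3% of all genes higher and 44.6% lower, with a median of -0.33 that is 0.13 above all genes and turns positive under spike-in scaling. Adgre1, the F4/80 antigen, lay at -1.31 and -0.79 at 17 dpp and -0.98 and -1.11 at 26 dpp and did not pass the test. Csf1r, the receptor for the macrophage growth factor, did not pass either, with a difference of -0.83 ± 0.29 (SE, limma adjusted p = 0.0593). Within class II antigen presentation, H2-Ab1 lay at -0.083 and 0.58 at 17 dpp and 2.10 and 2.86 at 26 dpp and rose by 2.23 ± 0.37 (SE, limma adjusted p = 0.00711), while Cd74, its invariant chain, fell with a difference of -1.70 ± 0.25 (SE, limma adjusted p = 0.00471); their ratio within each array shifted whatever the scaling. Cd68 fell with a difference of -0.51 ± 0.16 (SE, limma adjusted p = 0.0432), which turns positive under spike-in scaling, Ptprc rose by 1.26 ± 0.26 (SE, limma adjusted p = 0.0136), and Aif1, a calcium-binding protein of macrophages, lay at -0.37 and -0.052 at 17 dpp and 4.30 and 5.43 at 26 dpp and rose by 5.08 ± 0.42 (SE, limma adjusted p = 0.00132). Cd68 lost its call without any 1 of the 4 arrays (limma adjusted p up to 0.15). Ptprc lost its call without 17 dpp replicate 1 or 17 dpp replicate 2 (limma adjusted p up to 0.0807).

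Immediate early genes, which respond within minutes to stimuli and to tissue handling, fell in 10 of 12 measured, beside 44.6% of all genes. Their median was -1.78, against -0.46 over all genes, and comes near 0 (-0.16) under spike-in scaling. Fos lay at -2.20 and -2.26 at 17 dpp and -5.42 and -4.57 at 26 dpp and fell with a difference of -2.76 ± 0.33 (SE, limma adjusted p = 0.00274). Egr1 lay at 1.43 and 1.81 at 17 dpp and -0.71 and -0.89 at 26 dpp and fell with a difference of -2.42 ± 0.20 (SE, limma adjusted p = 0.00128), Jun with a difference of -1.63 ± 0.27 (SE, limma adjusted p = 0.00687), and Atf3 was at least 15.2-fold lower. The Ip6k1-/- testes of 17 dpp held Fos at -2.75 and -2.72 and Egr1 at 2.08 and 1.73. Fos was well above background on 1 of the 2 wild type arrays of 26 dpp. How long dissection took was not analysed here.

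The gene removed in the other genotype of the study belongs to the inositol phosphate enzymes, of which 3 of 15 measured rose (20%) and 6 fell (40%), near the 26.3% and 44.6% of all genes (median -0.35; positive under spike-in scaling). Ip6k1 rose by 0.53 ± 0.15 (SE, limma adjusted p = 0.03), while Ip6k2, a second hexakisphosphate kinase, lay at -0.84 and -0.76 at 17 dpp and -1.79 and -2.07 at 26 dpp and fell with a difference of -1.13 ± 0.17 (SE, limma adjusted p = 0.00543), which turns positive under spike-in scaling. Ppip5k1, which adds the next phosphate, rose by 1.35 ± 0.15 (SE, limma adjusted p = 0.00224). Among the phosphatases, Nudt4 rose by 1.59 ± 0.16 (SE, limma adjusted p = 0.00182), Nudt10 and Nudt11 fell with differences of -1.76 ± 0.18 (SE, limma adjusted p = 0.00193) and -2.10 ± 0.15 (SE, limma adjusted p = 0.000965), and Minpp1 fell with a difference of -1.64 ± 0.17 (SE, limma adjusted p = 0.00206). The ratio of Ip6k1 to Ip6k2 within each array thus rose whatever the scaling. Ip6k1 lost its call without any 1 of the 4 arrays (limma adjusted p up to 0.109).

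The epididymal genes that rose stand apart from those that fell. Cst8, a cystatin found in spermatids as well as epididymis, lay at 1.62 and 1.19 at 17 dpp and 4.26 and 5.52 at 26 dpp and rose by 3.48 ± 0.48 (SE, limma adjusted p = 0.00402). Ros1, a receptor kinase, was at least 2.39-fold higher, and Rnase10 rose by 1.90 ± 0.43 (SE, limma adjusted p = 0.017). Besides those named above, Defb37, Defb40, Adam7 and Rnase9 were at least 12.9-fold, 9.47-fold, 38-fold and 2.78-fold lower, and Cst11 and Defb48 fell with differences of -2.78 ± 0.14 (SE, limma adjusted p = 0.000466) and -1.85 ± 0.54 (SE, limma adjusted p = 0.0359). Cst11 was about as high in the Ip6k1-/- testes of 17 dpp (-0.70 and -0.38) as in wild type (-0.42 and -0.48), unlike Adam7 (-7.49 and -6.95 against -0.61 and 0.63). Defb48 lost its call without 26 dpp replicate 1 or 26 dpp replicate 2 (limma adjusted p up to 0.108). Rnase10 lost its call without 17 dpp replicate 1 or 17 dpp replicate 2 (limma adjusted p up to 0.0921).

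Promoter sequence differed between genes that rose steeply and other genes. RefSeq windows on GRCm38.p6 reach from 250 bases before to 50 bases after an annotated start, and 17657 windows matched 14156 of the genes tested. The dinucleotide CG (CpG), the site of DNA methylation, is scored as its count over that expected from the C and G content. Its median was 0.666 over all windows and 0.264 over the 1487 windows of genes that rose over 16-fold, while windows of all genes that rose had 0.583. Windows of all genes that fell had 0.692 and those of falls over 4-fold had 0.605, below all windows as well. The median GC content was 58.7% over all, 51% for the steep rises and 60.3% for all falls. The 250 bases before the start of 4 genes show the range, with every CpG in capitals. Prm1 comes first, then the germ cell and general forms of phosphoglycerate kinase and a Sertoli gene that fell.
Prm1: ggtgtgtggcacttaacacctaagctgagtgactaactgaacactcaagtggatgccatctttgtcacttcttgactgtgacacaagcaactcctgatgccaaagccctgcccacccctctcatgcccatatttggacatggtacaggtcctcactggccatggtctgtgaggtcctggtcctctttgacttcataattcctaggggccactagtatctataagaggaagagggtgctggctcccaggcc
Pgk2: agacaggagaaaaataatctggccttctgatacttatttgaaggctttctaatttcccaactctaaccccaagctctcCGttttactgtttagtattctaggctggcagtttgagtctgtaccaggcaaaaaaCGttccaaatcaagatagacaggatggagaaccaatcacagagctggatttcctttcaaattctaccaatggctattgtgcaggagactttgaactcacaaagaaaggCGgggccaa
Pgk1: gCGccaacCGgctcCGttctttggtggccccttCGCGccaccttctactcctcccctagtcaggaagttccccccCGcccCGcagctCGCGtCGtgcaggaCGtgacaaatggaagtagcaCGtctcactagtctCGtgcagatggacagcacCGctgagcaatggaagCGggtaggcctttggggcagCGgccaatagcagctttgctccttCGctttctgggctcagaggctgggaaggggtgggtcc
Inhbb: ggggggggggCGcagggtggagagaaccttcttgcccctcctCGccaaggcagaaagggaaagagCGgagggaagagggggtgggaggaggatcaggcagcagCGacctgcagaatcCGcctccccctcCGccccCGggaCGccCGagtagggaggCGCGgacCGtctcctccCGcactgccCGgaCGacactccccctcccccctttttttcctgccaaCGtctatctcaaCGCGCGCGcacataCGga
These stretches are chr16:10796824-10797073 on the minus strand, chr17:40208610-40208859 on the minus strand, chrX:106186850-106187099 on the plus strand and chr1:119422249-119422498 on the minus strand, on GRCm38.p6, and run 5′ to 3′ along the gene. Prm1 has 0 CpG in it and Pgk2 3, while Pgk1 has 17 and Inhbb 21. The stretches of Pgk2 and Pgk1, which rose and fell, thus differ in CpG as the groups of genes did. The examples were chosen after their values were seen and are a description.

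Of the motifs searched on both strands, the X-box core GTTGCC, which reads GGCAAC on the opposite strand and is part of the site bound by RFX factors, was in 13.1% of all windows, in 21.8% of the windows of genes that rose over 16-fold and in 11.2% of those of genes that fell. In the axoneme list it was in 10 of 25 windows (40%), in the tail list in 4 of 28 (14.3%) and in the Sertoli list in 0 of 18. The GC box GGGCGG was in 53.3% of all windows, 24.3% of the steep rises and 59.7% of the falls. It always holds a CpG, so its shares are not independent of the CpG content, and how far they follow it was not tested. Stretches of 30 bases around this core, in capitals, are shown for 4 named genes that rose, a spermatid linker histone, an RFX factor itself and 2 other genes.
Hils1: cccctaccctctGTTGCCtcagaccttcct
Rfx2: agcttggtaaccGTTGCCgggcgcaacgcc
Tex33: tagtgtcgccatGGCAACttcaatgcacat
Eno4: tgatctcgttgcGTTGCCtagcgacaaaag
They lie at chr11:94967493-94967522 on the plus strand, chr17:56831107-56831136 on the minus strand, chr15:78395931-78395960 on the minus strand and chr19:58943375-58943404 on the plus strand (GRCm38.p6). Hils1, Rfx2 and Tex33 are described above, and Eno4, a sperm enolase, rose by 5.66 ± 0.16 (SE, limma adjusted p = 0.000161).

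The cyclic AMP response element TGACGTCA, the palindrome bound by CREM and its relatives, was rare in this window. It was in 2.66% of all windows, in 2.86% of all rises and 1.95% of the steep ones, and in 2.47% of all falls and 2.01% of those over 4-fold. The element holds a CpG, and CpG was scarcer in the steep rises, but a link between these was not tested. It was found before Izumo1, which rose, and before Btg2, an immediate early gene that fell with a difference of -2.74 ± 0.18 (SE, limma adjusted p = 0.000787); the element is in capitals.
Izumo1: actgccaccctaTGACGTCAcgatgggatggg
Btg2: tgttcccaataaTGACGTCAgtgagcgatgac
The stretches are chr7:45621703-45621734 on the plus strand and chr1:134079302-134079333 on the minus strand (GRCm38.p6). A match is a description of letters in this window and says nothing of binding.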

How the data were processed

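Agilent Feature Extraction 11.5.1.1, per the file headers, gave the deposited intensity values: the processed signal, corrected for background and spatial trend. The authors' deposited value table holds log2 values, which followed log2 of the processed signal minus the array's 75th percentile; it served as an alternative, and its wild type medians were -3.69, -3.69, -3.59 and -3.64. Probe positions are on mm9, per the file headers. Exons were not assigned here.

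Outlier spots (122 to 139 on the 4 arrays) were left out, 0 spots were saturated, and spots of a probe were averaged. Probes well above background in the whole of 1 age or more entered, which gave 37200 probes; each gene took its kept probe of highest mean, which gave 26283 genes. Between 62.1% and 64.7% of probes were well above background, and 2 arrays an age limit the precision. Names came from RefSeq accessions for 27587 probes, from current symbols for 3497 and from the file for 24597. Of probes placed on a chromosome, 80 lay on another than the RefSeq gene and were left out of the chromosome shares.

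Genes were tested two-sided with limma 3.58.1 in R 4.3.3 (lmFit and eBayes, default settings; 2 residual and 2.28 prior degrees of freedom) on the 4 wild type arrays, with Benjamini-Hochberg adjustment over all genes. The procedure was tested on simulated data. Named genes are the 10 largest rises and falls measured on all 4 arrays, the 6 largest "at least" rises and falls, list anchors and the list members that moved most or against their list, the pairs, the protamine cluster, and called members of lists of other tissues; 1 gene that this rule names is not reported here. The largest rises and falls were ranked only among called genes with a current symbol that is not a clone, predicted-gene or accession name. The members and lists were chosen with earlier results of these data known. Genes shown for their sequence were picked after their values were seen. Alternatives covered background correction, scaling, filters, the arrays in the fit, the probe used, a replicate block and leaving out each array. Protein sequences were not used here.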

Additional observations from a re-analysis of the deposited data

How the results depend on the processing

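The counts of called, higher and lower genes stayed within 1.5 times of the reported ones under every alternative run except 2. With spike-in scaling 14294 genes were higher and 605 lower. With all 8 arrays in the fit 11983 genes were called and 6946 were lower; without the Ip6k1-/- array of 26 dpp, replicate 2, the total was 18348. Leaving out 1 wild type array gave 15155 to 17340 called genes, 5977 to 6782 higher and 9131 to 10558 lower. The lone array of an age is then assumed to vary like the other pair. Of the named genes 32 lost their call without 1 array. Acsbg1, Atp6v1e1 and Rbmxl2 of the pairs are among them, and the others are given above. With normexp background correction 11 of 26 list medians moved by more than the spread between replicates with 75th percentile scaling, and 10 with quantile normalization.

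The replicate numbers 1 and 2 occur at both ages but mark no shared animal or batch in the labels, and same-numbered arrays deviated with a correlation of -0.073. With a replicate block 17265 genes were called, 6524 higher and 10741 lower, and 16995 of the reported calls kept their direction and call.

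Named genes that turned sign under spike-in scaling, which by construction adds 1.62 to every difference, had log2 differences of Acsbg1 0.61, Acta2 0.086, Akr1c14 0.57, Alas2 1.02, Aldoa 1.20, Atp6v1e1 1.06, Ccnb1ip1 1.13, Cd68 1.11, Cnn1 0.41, Col1a1 0.50, Col3a1 0.34, Col4a1 0.23, Cox6b1 0.057, Csf1r 0.79, Dazl 0.055, Dexi 0.97, Dmc1 0.31, Emcn 0.18, Fabp4 0.48, Gapdh 0.059, Gfra1 0.78, Hormad1 1.60, Hspa8 0.47, Hvcn1 0.50, Inha 0.83, Ip6k2 0.49, Mki67 0.33, Myh11 0.47, Papola 0.26, Pcna 1.57, Pecam1 0.62, Pgk1 0.60, Plin1 0.97, Prdm9 0.15, Rbmx 0.31, Rhox5 0.99, Rmi2 0.20, Rnf8 0.70, Rsph4a 0.94, Slc25a31 1.35, Slc25a4 0.20, Socs1 0.049, Spata2 0.59, Star 0.50, Sycp1 1.16, Sycp3 0.85, Taf7 0.78, Tdrkh 0.76, Tuba1a 0.41.

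The cause of the other turns was not tested. With median scaling they were Adgre1 -0.12, Cdk1 -0.099, Eno1 -0.046, Kdr -0.015, Nxf1 -0.011, Piwil2 -0.063, Top2a -0.12. With quantile normalization they were Adgre1 -0.057, Eno1 -0.15, Top2a -0.050. Normexp background correction with the 75th percentile gave Adgre1 -0.065, Hormad1 0.0071, and with quantile normalization Adgre1 -0.095, Eno1 -0.14, Piwil2 -0.002. The percentile over probes well above background on all 4 arrays gave Hormad1 0.065, Pcna 0.036, the mean of all kept probes Cdk1 -0.15, Hormad1 0.081, Kdr -0.61, and the authors' value table Adgre1 -0.05, Cdk1 -0.031, Top2a -0.051. Over the fits without 1 array, differences ranged across 0 for Adgre1 -0.25 to 0.26, Adipoq -2.58 to 3.71, Ccnb1 -1.62 to 1.68, Cdk1 -0.018 to 0.064, Cfd -5.18 to 1.29, Eno1 -0.053 to 0.20, Fabp4 -3.90 to 1.62, Hormad1 -0.10 to 0.064, Plin1 -1.73 to 0.43, Top2a -0.23 to 0.23. For Ccnb1 another of its probes was chosen there.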

Other observations

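Genes known by clone or predicted names included many of the rises, 860 and 356 of 6920. Of 1736 genes known by a RIKEN clone name 49.5% were higher at 26 dpp, 27.6% over 16-fold, and of 927 predicted genes (Gm names) 38.4% were higher, 16.7% over 16-fold. The shares for other genes with a current symbol were 25.5% and 6.84%, and for 3316 long intergenic non-coding RNA probes 15.9% and 2.86%. Differences between these shares were not tested.

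Genes that rose over 2-fold also lay side by side. In the RefSeq order of 16589 measured coding genes, 3586 rose over 2-fold, and 21 runs of 5 or more neighbours held 138 of them. Whether so many runs would arise in a random order was not tested. The longest, 14 genes, was of multicopy genes on chromosome Y, followed by 12 kallikrein genes on chromosome 7 (differences of 1.80 to 6.85) and 9 genes on chromosome X, Ssx genes and the predicted gene Gm5751 (1.22 to 7.27). On chromosome 9 the 5 genes from Iqcf1 to Iqcf6 rose by 6.82 to 11.17 and 5 neighbouring serine proteases from Prss42 to Prss46 by 3.82 to 6.56. Copies in such families can share signal on 1 probe. The runs were named after their values were seen.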
